A study of Mus musculus with 12 samples.

Results

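The vesicular glutamate transporters are a family of 3 genes, Slc17a7 (VGLUT1), Slc17a6 (VGLUT2) and Slc17a8 (VGLUT3). They were taken by gene symbol from a table of normalized counts that listed 15759 entries, and all 3 were found, each on 1 row. The levels came from RNA sequencing of whole cortex and whole cerebellum at 12 weeks of age, on a C57BL/6J background. SCA1 KI mice (Atxn1 154Q/2Q) carry 1 Atxn1 allele with 154 glutamine codons and 1 allele with 2, under the endogenous regulators of the gene in every cell type, and model spinocerebellar ataxia type 1. WT littermates were the controls. Each of the 4 groups held 3 libraries, 12 in all, named here by the letter or number they carry in the table: WT cortex B, C and D, SCA1 KI cortex A, E and F, WT cerebellum 2, 4 and 6, and SCA1 KI cerebellum 1, 3 and 5.

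Glutamate is the main excitatory transmitter of the brain, and neurons release it from synaptic vesicles. A vesicular glutamate transporter sits in the vesicle membrane and uses the electrical gradient set up by a proton pump to load cytosolic glutamate into the vesicle. Slc17a7 is the transporter of most excitatory neurons of the cerebral cortex and hippocampus and of cerebellar granule cells. Slc17a6 predominates in the thalamus, habenula, midbrain and brainstem, is present in the deep cerebellar nuclei, and loads the climbing fibres that reach Purkinje cells from the inferior olive, whose cell bodies lie outside the cerebellum. Slc17a8 is found in scattered neurons that mainly use another transmitter, among them serotonergic, cholinergic and some GABAergic cells. RNA of a tissue piece reports the cell bodies in it and little from fibres that arrive from elsewhere.

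On GRCm38 (mm10) with GENCODE vM21, Slc17a7 (ENSMUSG00000070570.5) spans chr7:45163949-45176142 on the plus strand and Slc17a6 (ENSMUSG00000030500.6) spans chr7:51622006-51671119 on the same strand. Slc17a8 (ENSMUSG00000019935.16) lies on the minus strand at chr10:89574020-89621253. The merged exons cover 5392 bases for Slc17a7, 5399 for Slc17a6 and 4720 for Slc17a8, with coding sequences of 1755, 1746 and 1803 bases. Slc17a7 overlaps Mir7055 and Slc17a6 overlaps Gm45072, in both cases with no shared exon, and Slc17a8 overlaps no other gene. Aligned over their coding sequences, 72.3% of bases were identical between Slc17a6 and Slc17a7, 71.6% between Slc17a6 and Slc17a8, and 71.7% between Slc17a7 and Slc17a8.

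How far the reads of the 3 genes can be told apart depends on the stretches of coding sequence they share, and the longest identical run of each pair is therefore shown, 5′ to 3′ on the coding strand, from the GENCODE transcripts. The runs are 21, 25 and 17 bases long in this order, so that no longer coding stretch is common to any pair.
Slc17a6 and Slc17a7: aacctgggcgtggccatcgtg
Slc17a6 and Slc17a8: tcatgagcggcctcggcttctgcat
Slc17a7 and Slc17a8: ggttcctatgctggggc

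The promoter windows of the 3 genes are shown because the levels below differ most between the genes and between the regions. Each holds 250 bases before and 50 bases after a start site, read 5′ to 3′ on the strand of the gene, from RefSeq on GRCm38.p6. Capitals mark the GC box (GGGCGG, searched on both strands, CCGCCC on the other), the word bound by Sp-family factors. All 3 genes matched the RefSeq table, Slc17a6 and Slc17a8 with a second start site each that is not printed.
Slc17a7, chr7:45163671-45163970, plus strand: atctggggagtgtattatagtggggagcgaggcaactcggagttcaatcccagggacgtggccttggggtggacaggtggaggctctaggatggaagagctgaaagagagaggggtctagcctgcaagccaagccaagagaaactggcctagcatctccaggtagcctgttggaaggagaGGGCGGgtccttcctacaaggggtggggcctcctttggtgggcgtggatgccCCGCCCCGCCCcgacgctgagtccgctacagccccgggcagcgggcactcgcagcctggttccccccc
Slc17a6, chr7:51621580-51621879, plus strand: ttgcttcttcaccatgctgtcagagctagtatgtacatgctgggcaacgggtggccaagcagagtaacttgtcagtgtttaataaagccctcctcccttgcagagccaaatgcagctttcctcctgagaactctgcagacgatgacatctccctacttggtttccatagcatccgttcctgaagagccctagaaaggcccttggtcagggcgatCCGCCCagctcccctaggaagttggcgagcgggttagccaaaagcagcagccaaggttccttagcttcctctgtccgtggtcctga
Slc17a8, chr10:89621200-89621499, minus strand: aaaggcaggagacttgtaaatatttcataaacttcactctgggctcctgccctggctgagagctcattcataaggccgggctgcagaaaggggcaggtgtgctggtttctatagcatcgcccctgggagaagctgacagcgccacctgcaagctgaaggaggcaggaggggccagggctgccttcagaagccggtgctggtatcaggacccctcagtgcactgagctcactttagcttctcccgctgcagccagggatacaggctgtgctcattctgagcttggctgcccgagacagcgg

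The Slc17a7 window was the richest of the 3 in G and C, at 63.7% with 13 CpG, against a median of 52.7% and 7 CpG over 32851 RefSeq promoter windows of the same length. The Slc17a6 window had 53.7% with 8 CpG and the Slc17a8 window 58% with 7. GC boxes began 70, 18 and 13 bases before the Slc17a7 start site, the last pair overlapping by 1 base, and 36 bases before that of Slc17a6. The Slc17a8 window held none, and 35.7% of all windows held at least 1. These distances count from the RefSeq start sites, at 45163921 for Slc17a7 and 51621830 for Slc17a6. GENCODE starts these genes further on, at 45163949 and 51622006, so that the Slc17a6 window ends before the GENCODE start. Ataxin-1 binds the repressor capicua, whose octamer (TGAATGAA, TGAATGGA, TCAATGAA or TCAATGGA, both strands) was present in 3.84% of all windows and in none of these 3. The cyclic AMP response element TGACGTCA (1.79% of all windows) and the CCAAT box (CCAAT, 37.4%) were likewise absent. These are matches of letters and were not tested as sites.

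The libraries held 29520855 to 51311309 reads on genes, and each normalized count used here is a number of reads scaled by the size factor of its library. The labels do not say which table column is which numbered replicate, and p-values measure the spread between the libraries. The cerebellar libraries had been published earlier by the same laboratory, so that the region and the sequencing project cannot be told apart. The labels give male mice, whereas the methods of the study give both sexes. Library 2 of the WT cerebellum and library F of the SCA1 KI cortex stood apart in markers of other brain regions. The cerebellar libraries also differed widely in summed choroid plexus markers. These sums were 22352, 73027 and 19979.5 in WT libraries 2, 4 and 6. In SCA1 KI libraries 1, 3 and 5 they were 1372, 25778 and 76328. Library B of the WT cortex held more of the striatum (23017 against 10769 and 11695 in C and D), choroid plexus (1689.8 against 203 and 220) and oligodendrocyte markers (130472 against 81490.1 and 75634). In the cortex, all 10 markers of cortical excitatory neurons were measured, with summed levels of 47456 to 51205 normalized counts in WT and 32252 to 38986 in SCA1 KI libraries. In the cerebellum, the 10 granule cell markers summed to 162620 to 231484 in WT and 221866 to 230732 in SCA1 KI libraries. The cortical markers summed to 11954 to 13673 in WT and 12110 to 12823 in SCA1 KI cerebellum libraries. The granule cell markers summed to 4823 to 5275 in WT and 4355 to 5761 in SCA1 KI cortex libraries. Each of these lists was thus higher in every library of its own region than in any of the other.

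Slc17a7 was the highest of the 3 genes in every library of both regions. In the cortex its normalized count was 61714 in B, 59871 in C and 62252 in D of the WT libraries, and 41759.7 in A, 47425 in E and 41176.5 in F of the SCA1 KI libraries. Every SCA1 KI library lay under every WT library, and the WT libraries spread little, from highest to lowest by 1.04-fold. In the cerebellum the WT values were 11695 in library 2, 16039 in 4 and 16696 in 6, and the SCA1 KI values were 19972 in 1, 18056 in 3 and 18124 in 5. Here every SCA1 KI library lay above every WT library, and WT library 2 was the lowest of the 12.

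Slc17a6 was highest in the WT cerebellum. Its WT cortex values were 1519.9 in B, 1555 in C and 1267 in D, and its SCA1 KI cortex values were 1364 in A, 1752 in E and 2376 in F. The cortical groups overlapped, with SCA1 KI library A under WT libraries B and C and library F the highest. In the cerebellum the WT libraries held 6803 in library 2, 2878 in 4 and 3911 in 6, and the SCA1 KI libraries 982 in 1, 1117 in 3 and 1309.9 in 5. The lowest WT cerebellar library was above the highest SCA1 KI library, and WT library 2 was the highest of all 12.

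Slc17a8 was the lowest of the family. In the cortex it had normalized counts of 204 in B, 188 in C and 166 in D for WT, and 145 in A, 149 in E and 133 in F for SCA1 KI. The SCA1 KI cortex libraries all lay under the WT ones. In the cerebellum the WT values were 26.5 in library 2, 4.89 in 4 and 3.49 in 6, and the SCA1 KI values were 4.21 in 1, 4.81 in 3 and 10.6 in 5. These stand for 29, 4 and 3 reads in the WT and 5, 7 and 11 reads in the SCA1 KI libraries, so that the cerebellar level of Slc17a8 rested on few reads and the groups overlapped.

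**Figure D1:**
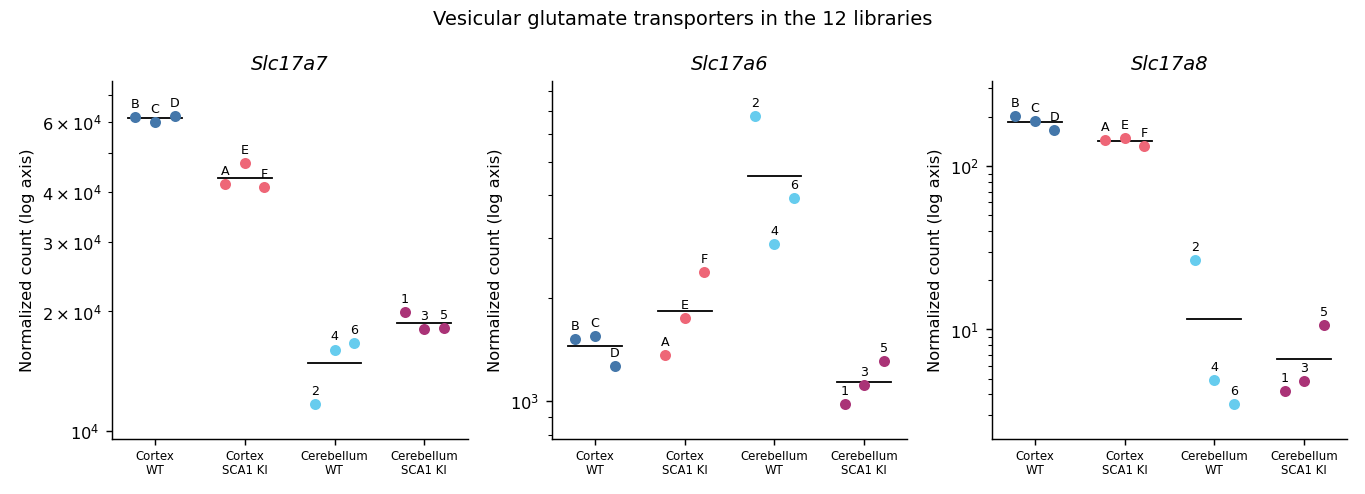
Normalized counts (log axis) of Slc17a7, Slc17a6 and Slc17a8 in each of the 12 libraries, with points labelled by library and a line at the mean of each group of 3. Slc17a7 was highest in the WT cortex (59871 to 62252), Slc17a6 in the WT cerebellum (2878 to 6803), and Slc17a8 was at most 26.5 in the cerebellum.

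The first comparison asked how the family differed between SCA1 KI and WT in the cortex. A gene counted as a DEG when its adjusted p was under 0.05 and its LFC (log2 fold change) exceeded 0.25 in size, with limma on log2(normalized count + 1) over 15369 genes and Benjamini-Hochberg adjustment. Slc17a7 fell in the SCA1 KI cortex, from 61279 ± 1249 to 43454 ± 3452 normalized counts (mean ± SD, n = 3 each). Its LFC was -0.50 (SE 0.11, 95% interval -0.74 to -0.26, limma adjusted p = 0.00815), which is 1.41-fold lower. Slc17a6 averaged 1447 ± 157 in WT and 1831 ± 511 in SCA1 KI, a difference smaller than the spread of the libraries (LFC 0.31, 95% interval -0.26 to 0.87, limma adjusted p = 0.469). Slc17a8 averaged 186 ± 19.2 and 142 ± 8.02, with an LFC of -0.38 that missed the threshold (95% interval -1.53 to 0.77, limma adjusted p = 0.674). The fit used 1 spread per gene for both regions. With the cortex fitted alone, limma gave it an adjusted p of 0.121.

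Thus 1 of the 3 genes was a DEG in the cortex, where 15.6% of all tested genes were DEGs, 4.82% higher and 10.8% lower. Slc17a7 and Slc17a8 were the members with no overlap between SCA1 KI and WT libraries, which was also the case for 30.9% of all tested genes. The median LFC over all tested genes was -0.0028. Without WT library B the LFC of Slc17a7 was -0.49 (limma adjusted p = 0.0259), and that of Slc17a8 was -0.31 (limma adjusted p = 0.795). Without library F the LFC of Slc17a7 was -0.46 (limma adjusted p = 0.0307), and that of Slc17a6 was 0.10 (limma adjusted p = 0.839).

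In bulk tissue, fewer cells of a type and less RNA per cell cannot be told apart. Of the 10 markers of cortical excitatory neurons, 3 fell in the SCA1 KI cortex and none rose, with a median LFC of -0.40. They were Nrn1, a neuritin of activity-dependent growth (LFC -1.01), Rorb, a factor of layer IV neurons (LFC -0.91), and Cux2, a factor of upper-layer neurons (LFC -0.64). Among the markers that missed the threshold were Neurod2 (LFC -0.11), Neurod6 (LFC -0.12), Bcl11b (LFC -0.16), Fezf2 (LFC -0.40) and Emx1 (LFC -0.43). Of all tested genes, 10.8% fell in the cortex. Of 6 tested hippocampus markers, 2 fell in the SCA1 KI cortex and none rose, with a median LFC of -0.44. The sums of the hippocampus list were 5511 to 6467 in WT and 2816 to 3993 in SCA1 KI cortex libraries. The part of the markers of either list in the Slc17a7 difference was not tested.

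The same comparison in the cerebellum gave a different member. Slc17a6 fell from 4531 ± 2034 normalized counts in WT to 1136 ± 165 in SCA1 KI (n = 3 each). Its LFC was -1.91 (SE 0.26, 95% interval -2.48 to -1.34, limma adjusted p = 9.43e-04), a 3.76-fold lower level. Without WT library 2, which held the highest value, the LFC was -1.57 (limma adjusted p = 0.00103). Slc17a7 averaged 14810.2 ± 2717 in WT and 18717 ± 1087 in SCA1 KI, an LFC of 0.35 that missed the threshold (95% interval 0.11 to 0.60, limma adjusted p = 0.0970). Slc17a8 averaged 11.6 ± 12.9 and 6.56 ± 3.56 (LFC -0.35, 95% interval -1.50 to 0.80, limma adjusted p = 0.822).

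Of the 3 genes, 1 was therefore a DEG in the cerebellum, where 5.36% of tested genes were DEGs, 0.917% higher and 4.44% lower. Slc17a6 and Slc17a7 had no overlap between SCA1 KI and WT libraries, as in 31.8% of all tested genes, and the median LFC of all tested genes was -0.0049. For Slc17a7 the call depended on the test, since DESeq2, run on the whole reads recovered from the table, put it past the threshold (LFC 0.34, adjusted p = 0.0440). Without WT library 2 its limma LFC was 0.19 (adjusted p = 0.259), and without that library the LFC of Slc17a8 turned from -0.35 to 0.46 (limma adjusted p = 0.654).

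**Figure D2:**
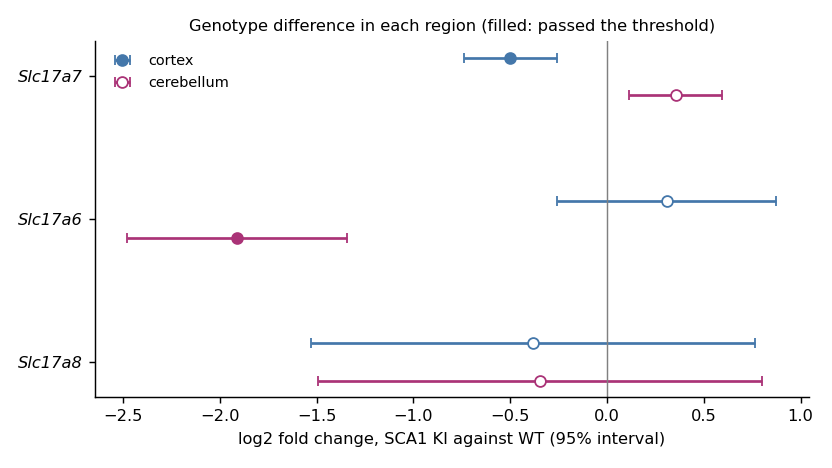
LFC of SCA1 KI against WT (horizontal axis, log2 scale) for each transporter in cortex and cerebellum, with 95% intervals from limma and filled points for the genes that passed the threshold. Slc17a7 in the cortex (-0.50) and Slc17a6 in the cerebellum (-1.91) are filled, and the intervals of Slc17a8 cross 0 in both regions.

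Next, the genotype differences were compared between the regions with an interaction term, the cortical LFC minus the cerebellar LFC. Slc17a7 gave -0.85 (SE 0.16, 95% interval -1.19 to -0.51, limma adjusted p = 0.00567). It was lower in 3 of 3 SCA1 KI cortex libraries and higher in 3 of 3 SCA1 KI cerebellum libraries than all WT libraries of the region. The genotypes did not overlap in 30.9% of all tested genes in the cortex and 31.8% in the cerebellum, where Slc17a7 missed the threshold. Slc17a6 gave 2.22 (SE 0.37, 95% interval 1.42 to 3.02, limma adjusted p = 0.00308). Slc17a8 gave -0.03 (95% interval -1.66 to 1.59, limma adjusted p = 0.986), an interval too wide to show a difference of the size seen for Slc17a7. An interaction passed in 8.15% of all tested genes.

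Cerebellar Slc17a6 moved together with genes that mark other brain regions, and their values stand beside it here. The sum of a list adds normalized counts, so that its genes with the highest counts weigh most. Of 7 measured thalamus markers, 4 fell in the SCA1 KI cerebellum (median LFC -0.48), with summed levels of 6228 to 7488 in WT and 4197 to 4376 in SCA1 KI libraries. Of 6 habenula markers, 4 fell (median LFC -2.98), and the sums were 1493 to 1569.6 in WT and 939 to 1017 in SCA1 KI libraries. Of 6 tested midbrain markers, 2 fell (median LFC -1.45), with sums of 1394 to 1699.97 in WT and 921 to 1206 in SCA1 KI libraries. None of the 4 tested hindbrain markers passed (median LFC -0.78), and their sums were 47.8 to 667 in WT and 51.4 to 170 in SCA1 KI libraries. The thalamus count was 2 without SCA1 KI library 1, 3 or 5, and the midbrain count 1 without WT library 2 or 6 or SCA1 KI library 1 or 3. Oligodendrocyte markers also moved with Slc17a6, 1 of 6 falling (Cldn11, LFC -0.61, median LFC of the list -0.52). Their sums were 256856, 168430 and 187314 in WT libraries 2, 4 and 6 and 142672 to 143220 in SCA1 KI libraries, and their part was not tested. No habenula marker and at most 1 thalamus and 1 midbrain marker was at 0 in a cerebellar library.

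Tcf7l2, a transcription factor of thalamic and habenular neurons, had 2404 normalized counts in WT cerebellum library 2, 1480.4 in 4 and 2051 in 6, against 223 in SCA1 KI library 1, 210.1 in 3 and 249 in 5. Shox2, a factor of thalamic neurons, had 210.0 in 2, 120 in 4 and 185 in 6, against 4.21 in 1, 0 in 3 and 9.68 in 5. The LFC was -3.09 for Tcf7l2 (limma adjusted p = 5.19e-05) and -5.46 for Shox2 (limma adjusted p = 5.15e-04). For both genes every SCA1 KI cerebellar library lay under every WT one, though Tcf7l2 was present in all of them. The genotypes did not overlap, in either direction, in 31.8% of all tested genes in the cerebellum.

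Pou4f1, a factor of habenula neurons, had 139 in 2, 46.4 in 4 and 83.9 in 6 of the WT cerebellar libraries, against 2.53 to 10.6 for SCA1 KI. Gata3, a factor of midbrain and brainstem GABAergic neurons, had 157 in 2, 48.9 in 4 and 95.5 in 6, against 2.53 to 12.6. Pax7, a factor of the dorsal midbrain, had 116 in 2, 19.5 in 4 and 58.2 in 6, against 1.69 to 2.90. Within the WT cerebellum these 5 genes, picked for display after their values were seen, ranked the libraries as Slc17a6 did, with 2 highest and 4 lowest. The sum of the thalamus list had the same order, whereas the habenula and midbrain sums did not. In libraries 2, 4 and 6 the habenula sum was 1493, 1569.6 and 1506, and the midbrain sum 1699.97, 1447 and 1394. The part of these genes and lists in the Slc17a6 difference was not tested.

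In the SCA1 KI cortex, library F was highest for Slc17a6, Tcf7l2 (310.0), Shox2 (51.4), Gata3 (46.0) and Pax7 (42.3). Library A was highest for Pou4f1 (371.5) and for the midbrain marker Tal1 (991, against 509 in E and 497 in F). The midbrain sum of A was 1399, near the 1435 of F, and Tal1 was the largest part of it in A. Gata3 had 1.97 in A and 2.02 in E, and Pax7 had 0 in A and 1.01 in E. Shox2 was at 0 in all 3 WT cortex libraries and had 35.5 in A and 16.2 in E. Over the whole lists, of 6 habenula markers 1 rose and 1 fell in the SCA1 KI cortex (median LFC -0.36), with sums of 3491 to 3913 in WT and 2427 to 3153 in SCA1 KI libraries. Of 7 thalamus markers, 1 rose and 1 fell (median LFC -0.25), with sums of 1901 to 2132 in WT and 1393.5 to 1885 in SCA1 KI libraries. Of 6 tested midbrain markers, 1 rose (median LFC 1.41), namely Tal1 (LFC 2.38), with sums of 387 to 525 in WT and 756 to 1435 in SCA1 KI libraries. Shox2 was the thalamus marker that rose and Rgs16 the one that fell (LFC -0.83), and Nwd2 was the habenula marker that fell (LFC -0.56). Pou4f1 rose in the SCA1 KI cortex with an LFC of 5.76 (limma adjusted p = 1.43e-05), with 217 to 371.5 normalized counts against 2.21 to 6.83 in WT. Slc17a6 did not share that difference beyond its spread. The granule cell markers, which mark the main Slc17a7 cells of the cerebellum, did not pass the test in either region (0 of 10). Their sum was lowest in WT cerebellum library 2, the library lowest in Slc17a7, and Gabra6, a granule cell GABA receptor subunit, had 20711 there against 26698 in library 6 and 32079.6 in library 4. The SCA1 KI cerebellum held 30845 to 32164 of Gabra6. The part of granule cell content in the Slc17a7 values was not tested.

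**Figure D3:**
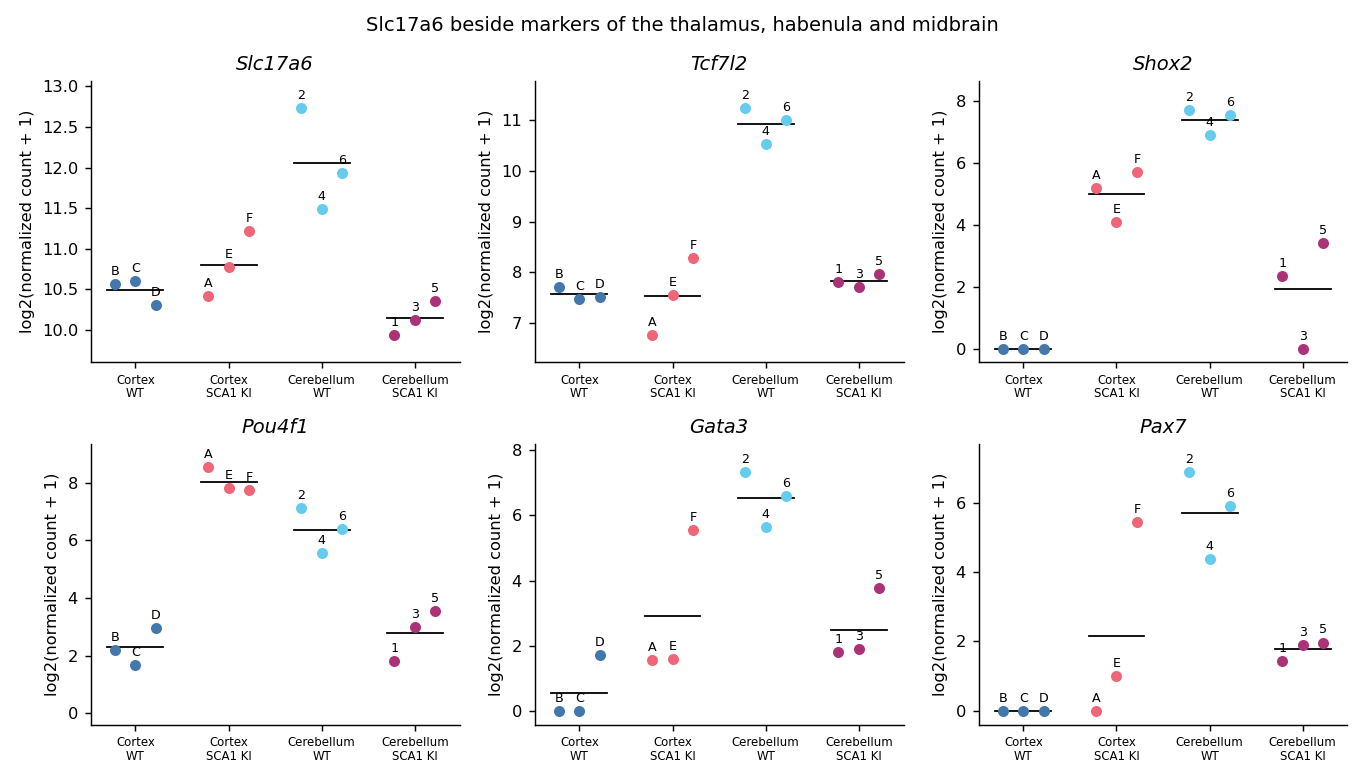
Levels, as log2(normalized count + 1), of Slc17a6 and of 5 marker genes of thalamus, habenula and midbrain in the 12 libraries, with points labelled by library and lines at the group means of the log values. In the WT cerebellum library 2 was highest and library 4 lowest in every panel, and Shox2 was at 0 in the WT cortex.

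The levels of the 3 genes were then compared per length, as normalized counts per kb of merged exons. In the WT cortex Slc17a7 stood at 11365 ± 232 (n = 3), rank 59 of 14978 genes with a length, Slc17a6 at 268 ± 29.1, rank 6031, and Slc17a8 at 39.5 ± 4.06, rank 11460. In the SCA1 KI cortex the ranks were 93, 5070 and 11901. In the WT cerebellum Slc17a7 stood at 2747 ± 504, rank 428, Slc17a6 at 839 ± 377, rank 2110, and Slc17a8 at 2.46 ± 2.73, rank 14485. In the SCA1 KI cerebellum Slc17a7 stood at 3471 ± 202, rank 286, Slc17a6 at 210.5 ± 30.5, rank 6988, and Slc17a8 at 1.39 ± 0.754, rank 14534. The order of the 3 genes per length was the same in all 12 libraries.

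Summed per length, the family stood in the cortex at 11672 ± 210 normalized counts per kb for WT and 8428 ± 628 for SCA1 KI. In the cerebellum the sums were 3588 ± 205 in WT and 3683 ± 178 in SCA1 KI. The sum of the family was thus close between the cerebellar groups, whereas its make-up was not. Slc17a7 was 63.2%, 84.8% and 81.0% of the sum in WT cerebellum libraries 2, 4 and 6, and 95.3%, 94.2% and 93.2% in SCA1 KI libraries 1, 3 and 5. Slc17a6 made up 36.7%, 15.2% and 19.0% of it in these WT libraries, and 4.68%, 5.82% and 6.73% in these SCA1 KI libraries.

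In the cortex Slc17a7 took 97.1% to 97.7% of the family in WT and 94.2% to 96.5% in SCA1 KI, and Slc17a6 1.99% to 2.52% and 3.15% to 5.43%. Thus neither pair of groups overlapped in either region. Mean shares of Slc17a6 differed by -17.9 points in the cerebellum and by 1.74 points in the cortex, SCA1 KI minus WT. Without WT cerebellum library 2 the cerebellar difference was -11.3 points, and without SCA1 KI cortex library F the cortical one was 1.05 points. For Slc17a7 the differences were 17.9 and -1.76 points, and without these libraries 11.3 and -1.07. They mirror the Slc17a6 values, since Slc17a8 makes up so little of the family, and are no separate result. With all libraries, each of these tests had p = 0.1 (2-sided exact permutation, n = 3 per group), the smallest that 3 against 3 libraries allow, and 0.15 after Benjamini-Hochberg adjustment over 6 tests, so that this design cannot reach 0.05. Slc17a8 made up 0.338% ± 0.0361 of the family in cortex of WT and 0.358% ± 0.0208 of SCA1 KI mice (exact permutation p = 0.6). Its cerebellar shares were 0.0707% ± 0.0803 and 0.0381% ± 0.0214 (exact permutation p = 0.8).

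**Figure D4:**
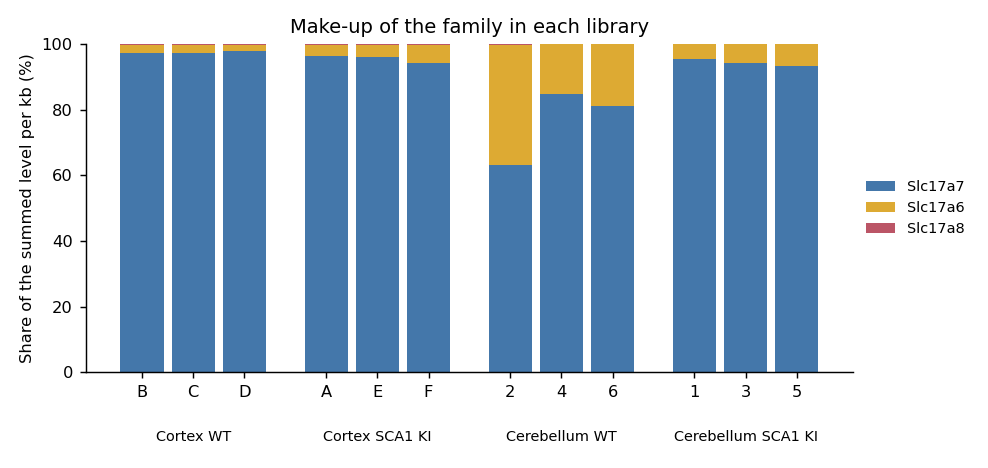
Share of each transporter in the summed level per kb of merged exons (vertical axis, %), one bar per library, grouped by region and genotype. Slc17a7 fills at least 93.2% of each bar outside the WT cerebellum, where Slc17a6 made up 15.2% to 36.7%.

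Between the regions, Slc17a7 was lower in the cerebellum than in the cortex by an LFC of -2.07 in WT (limma adjusted p = 4.09e-09) and -1.21 in SCA1 KI (limma adjusted p = 6.64e-07). Slc17a8 was lower by -4.38 in WT (limma adjusted p = 8.97e-06) and -4.34 in SCA1 KI (limma adjusted p = 9.24e-06). Slc17a6 changed side, being higher in the cerebellum than in the cortex in WT (LFC 1.56, limma adjusted p = 1.60e-04) and lower in SCA1 KI (LFC -0.66, limma adjusted p = 0.0390). The SCA1 KI difference lost its call with DESeq2 (adjusted p = 0.0530). It also lost it without any one of WT cortex library C, SCA1 KI cortex library E or F, or SCA1 KI cerebellum library 1 or 3 (limma adjusted p = 0.0508 to 0.160). All 3 genes passed in both comparisons, in which 61.7% and 62.4% of all tested genes passed for WT and SCA1 KI.

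By level, Slc17a7 was ordered WT cortex, SCA1 KI cortex, SCA1 KI cerebellum and WT cerebellum, of which the last pair did not differ past the threshold. The order for Slc17a6 was WT cerebellum, SCA1 KI cortex, WT cortex and SCA1 KI cerebellum. Its last 3 groups overlapped in part, WT cortex with both of its neighbours. For Slc17a8 the order was WT cortex, SCA1 KI cortex, WT cerebellum and SCA1 KI cerebellum, and the genotypes did not differ past the threshold within either region.

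Over the 12 libraries, the log2 levels of Slc17a6 and Slc17a7 had a Pearson r of -0.47, those of Slc17a6 and Slc17a8 an r of -0.15, and those of Slc17a7 and Slc17a8 an r of 0.88. After the group means were removed the values were -0.73, 0.73 and -0.86. These are descriptions over libraries that share groups, tissue pieces and size factors. The values with Slc17a8 rest in part on its 3 to 29 reads per cerebellar library.

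The genes whose log2 levels followed Slc17a6 most closely over the 12 libraries were Zfhx3, a homeobox zinc finger factor (Pearson r = 0.975), Dgkk, a diacylglycerol kinase (r = 0.939), Slitrk6 (r = 0.921), Pmfbp1 (r = 0.911) and Erich5 (r = 0.909). Zfhx3 averaged 347 normalized counts in WT and 382 in SCA1 KI cortex, and 883 in WT and 224 in SCA1 KI cerebellum, with a cerebellar LFC of -1.90 (limma adjusted p = 0.00167). Dgkk had 18.3, 74.9, 230.1 and 18.5 in the same order. For Slc17a7 they were Rab15, a GTPase of vesicle traffic (r = 0.995), Slc8a2, a sodium-calcium exchanger, Rnf10, Phactr3 and Map3k10 (each r = 0.994). Rab15 averaged 12872 for WT and 9651 for SCA1 KI in the cortex, a fall with an LFC of -0.42 (limma adjusted p = 0.00324), and 4295 and 4975 in the WT and SCA1 KI cerebellum (LFC 0.21, limma adjusted p = 0.172). For Slc17a8 they included Skap1, Nxph2, Hgf and Palm3 (r = 0.987 to 0.994). All these genes were picked for following a transporter over both genotypes, so that their genotype differences are no separate result.

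With the group means removed, the closest genes to Slc17a6 were Clip4, Cdh23, Ano4, Pcdh18 and Arhgap24 (r = 0.956 to 0.983). To Slc17a7 they were Kbtbd11, Cdc42bpb, Spata2, Rbfox3 and Pip5k1c (r = 0.956 to 0.976). Rbfox3, which encodes the neuronal protein NeuN, fell in the SCA1 KI cortex (15977 to 9731 normalized counts, LFC -0.72, limma adjusted p = 4.31e-04) and had an LFC of 0.01 in the cerebellum (limma adjusted p = 0.980). To Slc17a8 they were Nxph2, Hoxb3, Aldh3b2, Hoxc4 and Ube2l6 (r = 0.943 to 0.978). These values rest in part on the 3 to 29 reads of Slc17a8 per cerebellar library, with the most in WT library 2. Nxph2 averaged 6.09 and 0.97 normalized counts in WT and SCA1 KI cerebellum, and Hoxb3 and Hoxc4 averaged 0 in the WT cortex.

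Finally, the genes around vesicular loading were counted from lists of the pathway. Of 57 listed genes 48 were tested, and in the cortex 3 rose (6.25%) and 7 fell (14.6%), with a median LFC of -0.02. With the cortex fitted alone none of the 48 rose past the threshold. In the cerebellum none rose and 1 fell (2.08%), with a median LFC of -0.02. The cerebellar count was 2 or 3 without WT library 2 or 4 of the cerebellum, B of the WT cortex or A of the SCA1 KI cortex. These shares lie near those of all tested genes given above. In the cerebellum 2664 of all tested genes had an unadjusted limma p under 0.05, and edgeR called 866 and DESeq2 1150 of them DEGs.

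The proton pump that powers the transporters showed no DEG in either region among its 17 tested subunits (median LFC -0.03 in the cortex and -0.02 in the cerebellum). Among 10 genes of glutamate synthesis and metabolism 4 fell in the cortex. Among them were Glul, the glutamine synthetase of astrocytes (78168 ± 4978 to 54356 ± 3961 normalized counts, LFC -0.52), and the mitochondrial glutamate carriers Slc25a18 (LFC -0.51) and Slc25a22 (LFC -0.28). None of the 10 passed in the cerebellum.

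Of 4 transporters of glutamate uptake at the plasma membrane, the astrocytic Slc1a2 (209460 ± 8263 to 122293 ± 29473 normalized counts, LFC -0.81) and Slc1a3 (LFC -0.48) fell in the cortex, and Slc1a6, best known from Purkinje cells, rose (LFC 0.43). Of 6 astrocyte markers, of which Slc1a3 is one, 3 fell in the cortex (median LFC -0.38). Their summed levels were 52126 to 57793 in WT and 35365 to 45735 in SCA1 KI cortex libraries. The part of the astrocyte markers in the uptake genes and in those of glutamate synthesis and metabolism, such as Glul, was not tested. Among glutamine transporters Slc38a3 fell (LFC -0.32) and Slc38a7 rose (LFC 0.26) in the cortex, and of the vesicular chloride transporters Clcn5 rose (LFC 0.38). The calls of Slc1a6, Slc38a7 and Clcn5 were lost with the cortex fitted alone. None of these lists had a DEG in the cerebellum. The cerebellar DEG was Sh3gl3, an endophilin of the vesicle retrieval machinery, which had 426 ± 93.5 normalized counts in WT and 251 ± 15.1 in SCA1 KI (LFC -0.74, limma adjusted p = 0.00391). Its cortical LFC was 0.11 (limma adjusted p = 0.594).

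**Figure D5:**
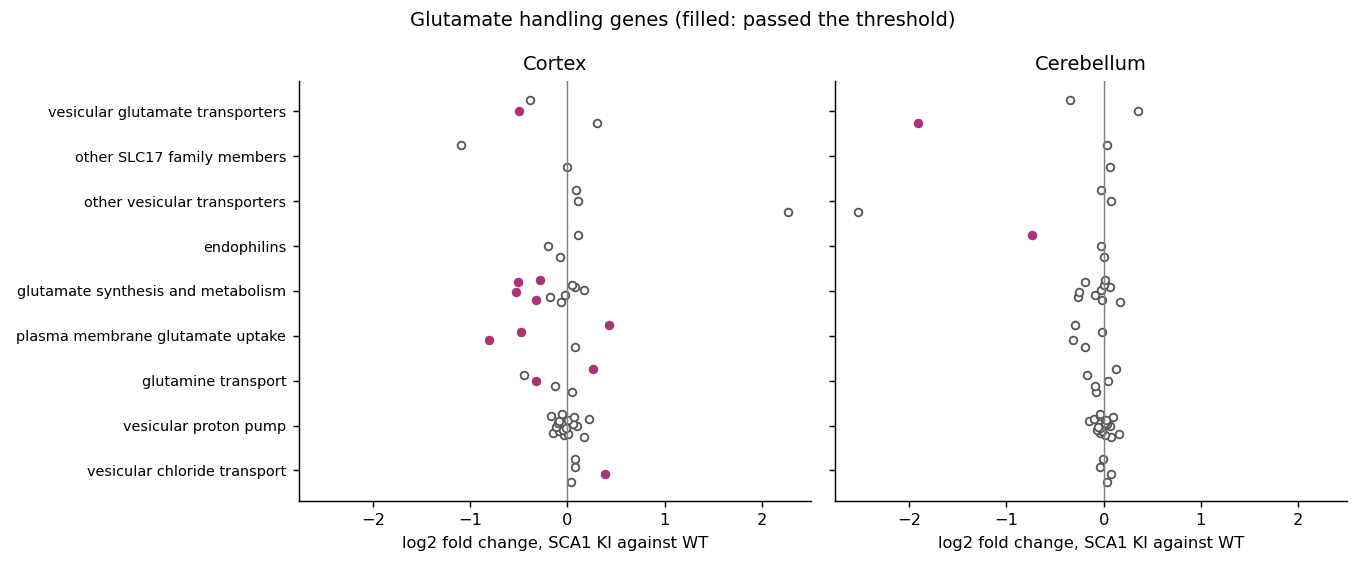
LFC of SCA1 KI against WT (horizontal axis, log2 scale) for the vesicular glutamate transporters and the lists of related genes in cortex and cerebellum, one point per gene, filled where the gene passed the threshold. Filled points of the cortex lie mostly among glutamate synthesis and uptake, and the 17 proton pump subunits have none in either region.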

How the data were processed

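Poly-adenylated RNA of macrodissected whole cortex and whole cerebellum was measured in 12 libraries, 3 in each of 4 groups. The authors aligned paired-end reads with STAR to mm10, used featureCounts for reads per gene and DESeq2 for normalization (versions and gene annotation not given in the sources used here). They deposited 1 table of normalized counts, in which the signal of a gene is its read number over the size factor of the library. Of the values, 100% in every library came out as whole reads within 0.001, and these were used for edgeR 4.0.16 and DESeq2 1.42.0. Within a group no library was a copy of another, since any pair had a mean chi-square of 7.43 to 36.0 per gene. Pairs across groups were not compared in this way.

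Of 15759 genes, 390 with a mean under 10 normalized counts were left out. limma 3.58.1 in R 4.3.3 (trend on the mean, 4 group means, 12 libraries) was fitted to log2(normalized count + 1) of the other 15369, with Benjamini-Hochberg adjustment. On this scale, changes of low-count genes are understated. DEGs had an adjusted p under 0.05 and, except for the interaction, an absolute LFC over 0.25. The most similar genes were the 5 with the highest Pearson r. The fits were tested on simulated data. GENCODE symbols matched 14978 genes. The members and lists were chosen with earlier results of these data known. Listed genes without a row were not analysed here, and some genes that meet these rules are not reported here.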

Additional observations from a re-analysis of the deposited data

Results flagged for a closer look

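The genotype difference of Slc17a7 was not the same in the regions, with an interaction of -0.85 on the log2 scale (cortical LFC minus cerebellar LFC, limma adjusted p = 0.00567), the cortical LFC being -0.50 and the cerebellar one 0.35. That of Slc17a6 differed in the other direction, with an interaction of 2.22 (limma adjusted p = 0.00308), from a cortical LFC of 0.31 and a cerebellar LFC of -1.91. Without WT cerebellum library 2 and SCA1 KI cortex library F together, an alternative chosen after seeing the data, the Slc17a6 interaction was 1.67 (limma adjusted p = 0.00245).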

How the results depend on the processing

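Of the alternative values for the members, 368 kept their direction and their side of the threshold, 10 reversed, 8 lost a call and 2 gained one. A limit of 1 on the LFC removed the calls of cortical Slc17a7 (-0.50) and of Slc17a6 between the SCA1 KI regions (-0.66), by its construction. Slc17a7 in the cerebellum gained a call with DESeq2 (0.34) and after each library's dependence on gene length and GC was removed (0.48, chosen after seeing the data), and the cause was not tested. Slc17a6 between the SCA1 KI regions lost its call with DESeq2 (-0.69) and ranged from -0.85 to -0.45 over single libraries left out. For Slc17a8 in the cerebellum that range was -0.85 to 0.46, the reversal coming without WT library 2, and it was 0.46 without libraries 2 and F together. Its interaction reversed with edgeR (0.61) and DESeq2 (0.55) and ranged from -0.84 to 0.47 over libraries left out, and its cerebellar share of the family from -0.058 to 0.014 points. The cause of these reversals was not tested, and all Slc17a8 values behind them rest on 3 to 29 reads per cerebellar library. Slc17a8 was not tested under a minimum mean of 100. DEGs numbered 741 higher and 1661 lower in the cortex (69.2% lower) and 141 and 683 in the cerebellum (82.9% lower). After that removal they were 1029 and 1308 (56.0%) and 540 and 588 (52.1%), and cerebellar ones with DESeq2 231 and 919. Leaving out single libraries moved higher cerebellar DEGs to as few as 43. No paired analysis was possible because the table columns carry no replicate number of the labels.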

Other observations

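Other vesicular transporters gave a contrast of values with the glutamate family. Slc32a1, the GABA and glycine transporter, had 3493 to 3634 normalized counts in the WT cortex, 3312 to 4775 in the SCA1 KI cortex, 6296 to 6677 in the WT cerebellum and 6051 to 6740.1 in the SCA1 KI cerebellum, and passed the test in neither region (LFC 0.09 and -0.03). Slc18a2, the transporter of monoamines, had 178 in SCA1 KI cortex library F against 12.8 in A and 13.2 in E, and 80.6 in WT cerebellum library 4 against 33.8 in 2 and 11.6 in 6. The serotonin transporter gene Slc6a4 was likewise highest in library F (152) and in library 4 (86.7). Slc17a5, the lysosomal sialic acid transporter of the wider SLC17 family, had LFCs of 0.00 in the cortex and 0.06 in the cerebellum, and Slc17a9, the nucleotide transporter, an LFC of -1.09 in the cortex that missed the threshold (limma adjusted p = 0.123).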
